A study of Mus musculus with 8 samples.

Results

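Long noncoding RNAs were examined in the renal cortex of aged and young mice. The 10 RNAs considered were Malat1, Neat1, H19, Meg3, Rian, Kcnq1ot1, Gas5, Snhg1, Snhg3 and Snhg8, and they were taken by symbol from the 22609 genes of the read count table. The aged group was 4 male C57BL6 mice of 30 months and the young group 4 male C57BL6 mice of 5 months, by the sample labels; the study's methods give a somewhat higher mean age for the aged mice. All 8 mice were untreated, no transgene or mutation was named, and each mouse gave 1 library of renal cortex. Total RNA was depleted of ribosomal RNA rather than selected for poly(A) tails, so transcripts without a long poly(A) tail could be counted too. Levels are given as CPM, the counts of a gene per 1000000 read pairs counted on genes, scaled between libraries by the TMM method.

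Malat1 and Neat1 are neighboring RNAs that stay in the nucleus, where Malat1 gathers at splicing speckles and Neat1 is the scaffold of paraspeckles. H19, Meg3, Rian and Kcnq1ot1 are imprinted, which means that only the copy from a single parent is transcribed; H19, Meg3 and Rian come from the maternal copy and Kcnq1ot1 from the paternal copy. Gas5, Snhg1, Snhg3 and Snhg8 are host genes whose introns carry small nucleolar RNAs (snoRNAs), the guides of ribosomal RNA modification, while the spliced exons are turned over quickly.

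In aged mice all 4 snoRNA host genes had higher mean levels, by 1.37-fold for Gas5, 1.49-fold for Snhg8, 1.62-fold for Snhg3 and 1.70-fold for Snhg1. Of these Snhg8 alone had an adjusted p below 0.05, and its fold lay just under the threshold of 1.5. Malat1 and Neat1 did not pass the test, and neither did Meg3, Rian and Kcnq1ot1. H19 was near the limit of detection in both groups. Genes were called changed where edgeR's quasi-likelihood test gave an adjusted p (Benjamini-Hochberg) under 0.05 and the fold was above 1.5. By these criteria 0 of the 9 RNAs that could be tested changed, where 2.06% of all 13944 genes tested did. With the adjusted p alone 1 RNA passed, where 2.95% of all genes did, and 4 RNAs had an unadjusted p below 0.05, where 25.5% of all genes did.

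The libraries held 14.8M to 19.02M gene counts in aged and 15.2M to 19.8M in young mice, so that 3 counts, taken as the floor of detection, stood for 0.151 to 0.202 CPM. Intervals and floors of this kind cover counting error only. Markers of the proximal tubule summed to between 9388 and 44494 CPM and podocyte markers to between 258 and 506 CPM in the 8 libraries, whereas 3 markers of steroid-producing adrenal cells summed to at most 3.32 CPM. Aged mouse 1 stood apart: it lay at -71.5 on the first principal component, with the lowest sum of proximal tubule markers (9388 CPM) and the highest sum of the adipocyte markers Adipoq, Plin1 and Cidec (116 CPM, against 3.63 to 24.6 CPM in the other aged mice and 0.544 to 10.6 CPM in young mice). Its part in the results was not tested, and values of the 10 RNAs that rest on it are given with and without it. In such bulk tissue fewer cells of a type and less RNA per cell cannot be told apart.

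**Figure D1:**
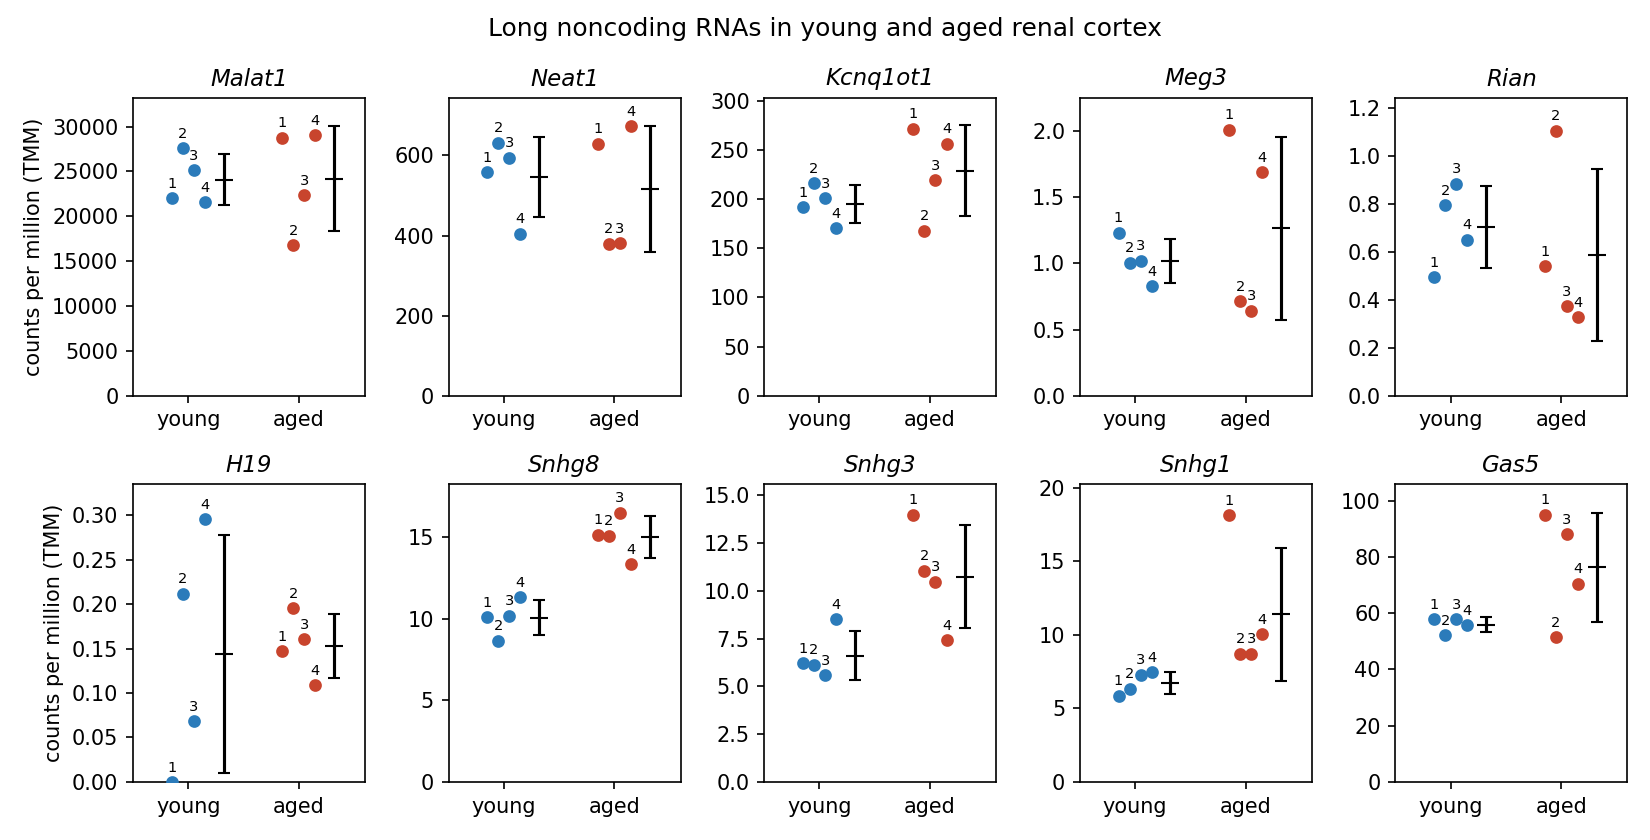
Level of each of the 10 long noncoding RNAs in TMM-scaled CPM (vertical axes, each starting at 0) in 4 young (blue) and 4 aged (red) mice; points are mice, marked with their number, and bars show the mean and SD. All aged points lay above all young points for Snhg8 and Snhg1, and the groups overlapped for the other 8.

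Snhg8, the host of the snoRNA Snora24, stood at 15.2, 15.1, 16.5 and 13.3 CPM in the aged mice (1 to 4) and at 10.1, 8.67, 10.2 and 11.3 CPM in the young mice (1 to 4). The lowest aged mouse was above the highest young mouse. Means were 15.03 ± 1.30 CPM (SD, n = 4) in the aged and 10.1 ± 1.09 CPM (SD, n = 4) in the young mice, and the log2 fold change was 0.58 (SE, the standard error, 0.12; adjusted p = 0.0410 by edgeR). By p it ranked 277 among the genes tested. The adjusted p rose above 0.05 in fits that left out aged mouse 2, aged mouse 3 or any single young mouse, and was highest (0.131) without young mouse 1. Without aged mouse 4 the log2 fold change was 0.63 (adjusted p = 0.0244 by edgeR), which passed both thresholds as 2.34% of all genes did in that direction. Without aged mouse 1 it was 0.57 (adjusted p = 0.0369).

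Snhg1 is the host of Snord22 and of a run of related snoRNAs. Its level was 18.1, 8.72, 8.71 and 10.03 CPM in the aged mice (1 to 4), against 5.86, 6.35, 7.28 and 7.44 CPM in the young mice (1 to 4). The groups did not overlap, but aged mouse 1 lay far above the other aged mice. The log2 fold change was 0.76 (SE 0.25, adjusted p = 0.108 by edgeR) with that mouse and 0.44 (adjusted p = 0.0788) without it, so the size of the Snhg1 difference rested in part on aged mouse 1. DESeq2 put the same gene at an adjusted p of 0.0438 and past both thresholds, as it did 3.49% of all genes in that direction.

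Snhg3 hosts a pair of snoRNAs of the H/ACA class. It stood at 13.996, 11.1, 10.5 and 7.41 CPM in the aged mice (1 to 4) and at 6.23, 6.13, 5.58 and 8.51 CPM in the young mice (1 to 4). The groups overlapped through a single mouse on each side, aged mouse 4 and young mouse 4. Means were 10.7 ± 2.70 CPM (SD, n = 4) and 6.61 ± 1.30 CPM (SD, n = 4), a log2 fold change of 0.70 (SE 0.21, adjusted p = 0.0954 by edgeR). It passed both thresholds without aged mouse 4 (0.84, adjusted p = 0.0335) and with DESeq2 (adjusted p = 0.0331), and its log2 fold change was 0.54 without aged mouse 1.

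Gas5, first described as a transcript that accumulates in growth-arrested cells, stood at 95.1, 51.4, 88.1 and 70.5 CPM in the aged mice (1 to 4), and the young mice (1 to 4) had 57.9, 52.1, 57.9 and 55.6 CPM. Aged mouse 2 was below every young mouse and the other aged mice were above every young mouse. Means were 76.3 ± 19.5 CPM (SD, n = 4) in the aged and 55.9 ± 2.72 CPM (SD, n = 4) in the young mice, a log2 fold change of 0.45 (SE 0.17, adjusted p = 0.149). Without aged mouse 2 the log2 fold change was 0.60 (adjusted p = 0.0536), and without aged mouse 1 it was 0.33.

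All 4 host genes had an unadjusted p below 0.05 with a higher aged mean, where 13.4% of all genes tested did, and in 2 of them the groups did not overlap with the aged mice higher, where 8.85% of all genes did. Their median log2 fold change was 0.64 against 0.03 over all genes tested. The sum of the 4 genes was 142, 86.3, 124 and 101 CPM in the aged mice (1 to 4) and 80.1, 73.3, 81.0 and 82.9 CPM in the young mice (1 to 4). Aged mouse 1 had the highest sum, and every aged sum was above every young sum, though narrowly between aged mouse 2 (86.3 CPM) and young mouse 4 (82.9 CPM). Gas5 made up most of each sum. Taken by themselves, Gas5 and Snhg3 overlapped between the groups.

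**Figure D2:**
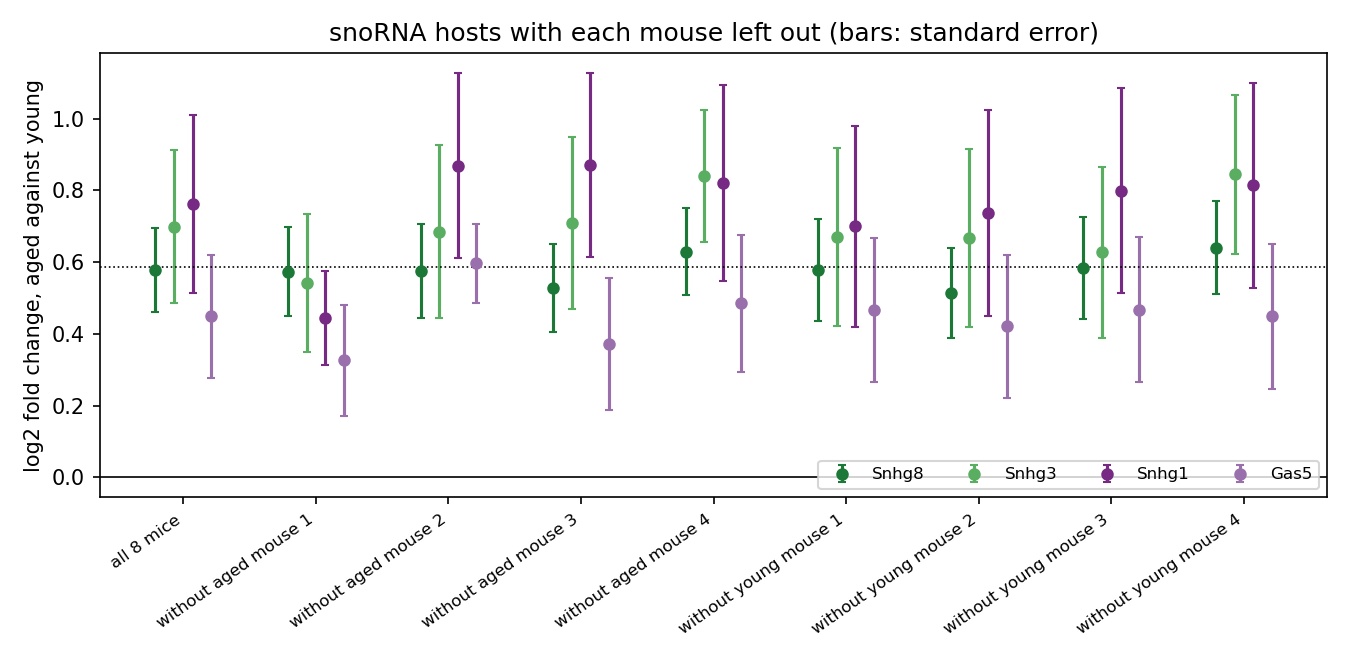
Log2 fold change of the 4 snoRNA host genes, aged against young (vertical axis; points, with bars for the standard error), in all 8 mice and with each mouse left out in turn (horizontal axis); the dotted line marks the fold of 1.5. Snhg8 stayed between 0.51 and 0.64, and Snhg1 fell from 0.76 to 0.44 without aged mouse 1.

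Many host genes of this kind are known for transcripts that start at a C followed by further pyrimidines, the terminal oligopyrimidine (TOP) start shared with ribosomal protein mRNAs. Because the 4 host genes had higher aged means together, their promoters are shown, as RefSeq gives them for GRCm38.p6 and placed on mm9 by exact match. Each runs 5′ to 3′ on the strand of the gene, from 60 bases before the start site to 40 bases from it on, with the first 6 transcribed bases and any TATAA within 40 to 16 bases before the start, or in Snhg3 after it, in capitals.
Snhg8, chr3:123211215-123211314, minus strand: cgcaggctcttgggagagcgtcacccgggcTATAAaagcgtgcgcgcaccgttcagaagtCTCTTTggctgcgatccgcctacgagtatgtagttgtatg
Gas5 (the second of 2 start sites), chr1:162965237-162965336, plus strand: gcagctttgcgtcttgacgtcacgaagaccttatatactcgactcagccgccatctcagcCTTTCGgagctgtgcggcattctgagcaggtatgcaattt
Snhg1, chr19:8797917-8798016, plus strand: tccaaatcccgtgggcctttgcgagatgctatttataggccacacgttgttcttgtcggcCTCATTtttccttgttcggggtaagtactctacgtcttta
Snhg3, chr4:131909562-131909661, minus strand: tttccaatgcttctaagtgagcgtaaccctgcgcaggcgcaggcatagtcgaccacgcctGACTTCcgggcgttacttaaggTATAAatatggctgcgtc

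Snhg8 started with 6 pyrimidines, Gas5 at the start shown with 5 and Snhg1 with 3, all from a C. Snhg3 started at a G in this annotation. A start at C with at least 5 C or T in a row was found in 2.51% of 32851 mouse promoters of the same length, and TATAA 40 to 16 bases before the start, as in Snhg8, in 3.52%. The other start of Gas5 opened with GAGCTC, no pyrimidine run. The motif TGACGTCA, searched on both strands over 300 bases, was present before the Gas5 start shown and before a start of Meg3, and in 1.79% of all promoters. CACGTG was in none of the promoters of the 8 RNAs that RefSeq matched, where 7.15% of all promoters held it. A match of letters is a description of the sequence and not a measurement of binding.

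The snoRNAs inside the host genes have rows of their own in few cases. Gas5 holds 8 snoRNAs, Snhg1 holds 8, Snhg3 holds 2 and Snhg8 holds 1, and rows of the count table were matched to 3 of them. Snora24 in Snhg8 was at 0 counts in all 8 libraries, and Snord47 in Gas5 had 15 counts over the aged and 11 over the young libraries. Snord22 in Snhg1 stood at 15.1 ± 2.43 CPM (SD, n = 4) in the aged and 13.9 ± 3.13 CPM (SD, n = 4) in the young mice, a log2 fold change of 0.11 (SE 0.19, adjusted p = 0.723 by edgeR). Snord22 thus had more counts than its host, 1098 against 850 over the aged and 939 against 448 over the young libraries. Whether these counts came from mature snoRNAs or from longer precursors was not tested.

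Genes next to the hosts served to show the surroundings. Zbtb37, whose gene lies beside Gas5, stood at 23.2 ± 1.71 CPM (SD, n = 4) in the aged and 18.9 ± 0.872 CPM (SD, n = 4) in the young mice, and the groups did not overlap (log2 fold change 0.29, SE 0.09, adjusted p = 0.0882 by edgeR). Slc3a2 beside Snhg1, which encodes a heavy chain of amino acid transporters, had a log2 fold change of 0.20 (adjusted p = 0.484). The neighbors Prss12 of Snhg8 and Phactr4 of Snhg3 had values of -0.15 and 0.08, and neither passed the test.

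A further 10 snoRNA host genes were in the table, of which 9 could be tested. The aged mean was higher in 8 of the 9 (54.1% over all genes) and lower in Snhg10, with a median log2 fold change of 0.49. None passed both thresholds or the adjusted p alone in edgeR, 4 had an unadjusted p below 0.05 with a higher aged mean (13.4% over all genes), and in 2 the groups did not overlap with the aged mice higher (8.85% over all genes). Aged mouse 1 was the highest mouse in 7 of these 9 genes. The share of all genes in which it was highest was not counted. As it stood apart over the whole table, the 7 cannot be read as particular to host genes. Without it 7 of the 9 had a higher aged mean, 4 had an unadjusted p below 0.05 and the median log2 fold change was 0.29, counts chosen after seeing the data. The smallest p was that of 1110038B12Rik, at 14.5, 11.6, 11.4 and 13.2 CPM in the aged mice (1 to 4) and 9.12, 7.93, 8.77 and 10.2 CPM in the young mice (1 to 4) (log2 fold change 0.49, SE 0.13, adjusted p = 0.0672 by edgeR). Snhg5 and Snhg12 are named here after their values were seen. Snhg5 stood at 10.2 CPM in aged mouse 1, between 3.06 and 3.47 CPM in the other aged mice, and between 1.22 and 2.90 CPM in young mice (log2 fold change 1.29, SE 0.45, adjusted p = 0.126 by edgeR), and its log2 fold change was 0.66 without aged mouse 1. Snhg12 stood at 17.04, 8.13, 12.5 and 12.6 CPM in the aged mice (1 to 4) and between 7.77 and 8.39 CPM in the young mice, a log2 fold change of 0.65 (adjusted p = 0.0969) and 0.47 without aged mouse 1 (adjusted p = 0.112). Aged mouse 1 was highest and aged mouse 2 lay within the young range. In Snhg5 the aged mice other than mouse 1 lay close together just above the young mice.

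**Figure D3:**
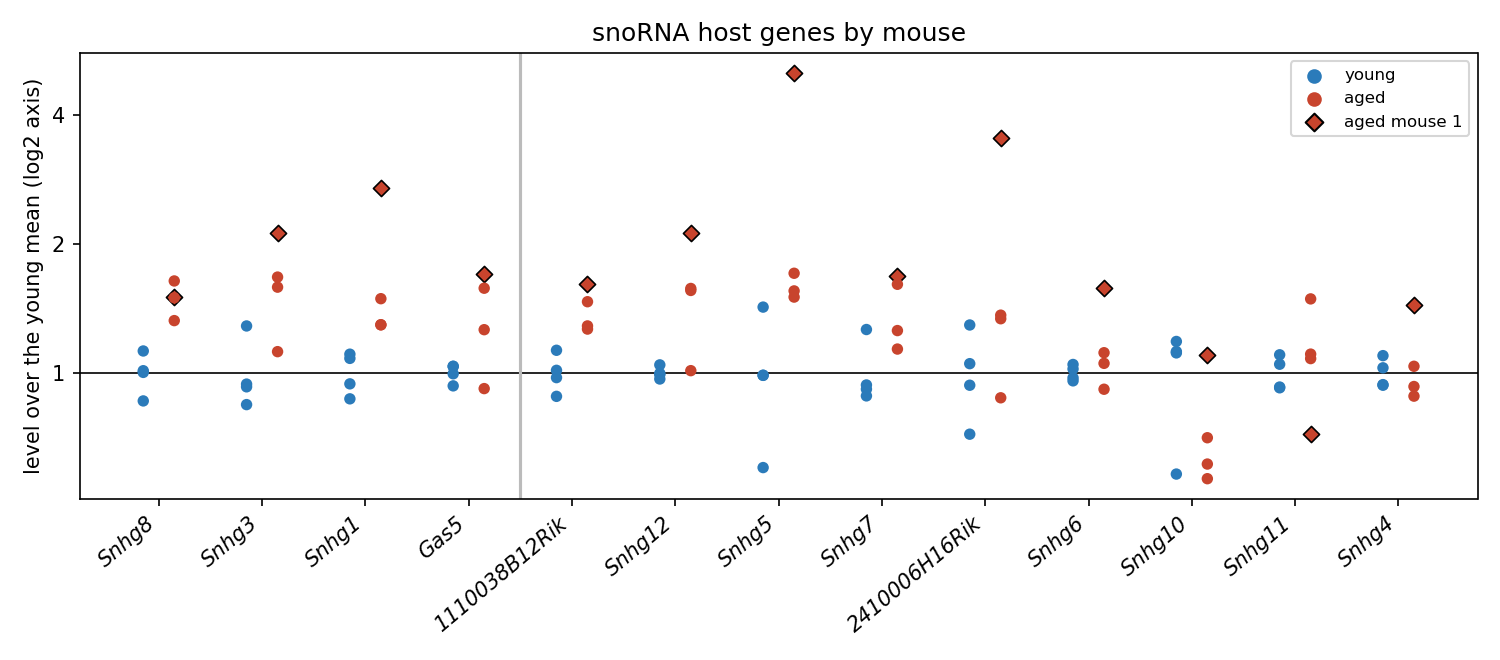
Level of 13 tested snoRNA host genes in each mouse, divided by the mean of the young mice (vertical axis, log2 scale); the 4 host genes described first are left of the gray line, points are mice, and black-edged diamonds are aged mouse 1. Aged mouse 1 was the highest mouse for 10 of the 13 genes, Snhg1, Snhg3 and Gas5 among them, and for Snhg8 it lay among the other aged mice. The share of all genes in which it was highest was not counted.

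The machinery that works with host transcripts was read from fixed lists. The 114 rows of small nucleolar and small Cajal body RNAs held 11 at 0 in all libraries and 30 that could be tested, of which 25 had a higher aged mean (median log2 fold change 0.30), 0 passed the adjusted p and 8 had an unadjusted p below 0.05 in edgeR, all higher. Over all genes 54.1% had a higher aged mean and 13.4% an unadjusted p below 0.05 in that direction. Without aged mouse 1 the median of the list was 0.15, with 7 of 32 higher at an unadjusted p below 0.05. The smallest p among them was that of Scarna6, at 17.1 ± 3.06 CPM (SD, n = 4) in the aged and 11.3 CPM on average in young mice with no overlap (log2 fold change 0.60, SE 0.14, adjusted p = 0.0564). It passed both thresholds without aged mouse 4 (0.68, adjusted p = 0.0261).

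Of 12 snoRNP proteins, which bind snoRNAs and guide their assembly, Nhp2 fell. This core protein of H/ACA particles stood at 19.3, 20.3, 17.5 and 24.9 CPM in the aged mice (1 to 4) and at 46.2, 34.3, 29.4 and 31.4 CPM in the young mice (1 to 4). The groups did not overlap, and the log2 fold change was -0.79 (SE 0.16, adjusted p = 0.0429 by edgeR). The call was lost in fits that left out aged mouse 2, aged mouse 3 or any single young mouse, with an adjusted p of up to 0.118. Of the 12 proteins 7 had a higher aged mean and the median log2 fold change was 0.02. Nhp2 alone was called, where 2.06% of all genes tested were.

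TOP mRNAs are those of the ribosomal proteins and translation factors known for the TOP start. Of the 88 tested 75 had a higher aged mean (median log2 fold change 0.24), where 54.1% of all genes tested did. In edgeR 37 had an unadjusted p below 0.05 with a higher aged mean and 1 with a lower one, 4 passed the adjusted p alone and 0 passed both thresholds, where 13.4% of all genes were higher at an unadjusted p below 0.05 and 2.95% passed the adjusted p alone in either direction. Without aged mouse 1 the median was 0.22. Rps3a had the smallest p, at 38.7 ± 1.65 CPM (SD, n = 4) in the aged and 26.2 CPM on average in young mice (log2 fold change 0.56, SE 0.08, adjusted p = 0.0217). It passed both thresholds without aged mouse 4 (0.59, adjusted p = 0.0105). Ribosomal protein genes have many near-identical processed copies, so their counts are uncertain. Among 12 factors of nonsense-mediated decay, the pathway that degrades spliced host transcripts, 7 had a higher aged mean and the median log2 fold change was 0.06. Upf3b passed the adjusted p alone, at 26.7 ± 3.53 CPM (SD, n = 4) in the aged and 18.3 CPM on average in young mice (log2 fold change 0.54, SE 0.11, adjusted p = 0.0397), and it passed both thresholds without aged mouse 2 (0.63, adjusted p = 0.0282). The adjusted p of Upf3b rose above 0.05 in fits that left out aged mouse 3 or any single young mouse (up to 0.130), and that of Rps3a in those that left out any single young mouse (up to 0.0896).

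Malat1 and Neat1 lie next to each other on chromosome 19 of mm9 (minus strand), at 5795690 to 5802671 and 5824708 to 5845478. Malat1 took between 1.74% and 3.08% of all gene counts in a library. It held the highest count of any gene in 6 of the 8 libraries and the second highest in aged mouse 2 and young mouse 4. Its level was 28755, 16758, 22334 and 29015 CPM in the aged mice (1 to 4) and 22004, 27582, 25124 and 21546 CPM in the young mice (1 to 4). The groups overlapped throughout, and the aged mice held both the highest and the lowest value. The log2 fold change was 0.01 (SE 0.22, adjusted p = 0.982 by edgeR), and its sign turned in several other fits.

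Neat1 stood at 629, 380, 381 and 673 CPM in the aged mice (1 to 4) and at 558, 631, 594 and 404 CPM in the young mice (1 to 4). Aged mice 1 and 4 were high and aged mice 2 and 3 low, while young mouse 4 was the low one of its group. The log2 fold change was -0.08 (SE 0.23, adjusted p = 0.834 by edgeR). It was positive, at 0.04, without aged mouse 2, and at 0.02 with scaling to library size only. Per kilobase of transcript Malat1 (6982 nt) stood at 3468 ± 838 CPM per kb (SD, n = 4) in the aged and 3447 ± 406 (SD, n = 4) in the young mice. Neat1 stood at 24.8 ± 7.56 CPM per kb in aged and 26.3 ± 4.80 in young mice over its long form of 20771 nt, and at 172 ± 52.3 and 182 ± 33.2 over its 3004-nt form (SD, n = 4 each). Which form the counts were made on was not known, so its level per length is given over both, and both values are below that of Malat1 per length.

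The ratio of the Neat1 count to the Malat1 count does not depend on scaling between libraries. It was 0.0219, 0.0227, 0.0171 and 0.0232 in the aged mice (1 to 4) and 0.0253, 0.0229, 0.0236 and 0.0188 in the young mice (1 to 4). The log2 difference was -0.10 (two-sided exact permutation test, p = 0.486, adjusted p = 0.486 over 3 ratios), and 4 against 4 mice cannot go below p = 0.0286. The smallest of the 8 ratios was in aged mouse 3 and the largest in young mouse 1. The genes with levels most like Neat1 over the 8 libraries were 4933411K16Rik (Pearson r = 0.98), Polr3a, the largest subunit of RNA polymerase III (0.97), and Ankrd13d (0.96).

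Proteins of the bodies that these RNAs mark were listed as well. Of 17 tested paraspeckle proteins 13 had a higher aged mean (median log2 fold change 0.18), and of 17 speckle proteins 15 did (median 0.15), where 54.1% of all genes tested had a log2 fold change above 0. None passed the adjusted p in edgeR, with 5 paraspeckle proteins (4 higher, 1 lower) and 3 speckle proteins (all higher) at an unadjusted p below 0.05. The share of all genes tested with such an unadjusted p was 25.5%. Matr3, a nuclear matrix protein, had the smallest p of the first list, at 204 ± 14.6 CPM (SD, n = 4) in the aged and 170 CPM on average in young mice without overlap (log2 fold change 0.26, SE 0.08, adjusted p = 0.0889). Snrnp70, a protein of the U1 splicing particle, had the smallest p of the other, at 95.01 ± 13.2 CPM (SD, n = 4) in the aged and 70.6 CPM on average in young mice (log2 fold change 0.43, SE 0.11, adjusted p = 0.0697).

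The imprinted RNAs were mostly sparse in adult cortex. H19, which is abundant in fetal tissues, had 3, 3, 3 and 2 counts in the aged mice (1 to 4) and 0, 4, 1 and 5 in the young mice (1 to 4). These are 11 against 10 counts in all, near the floor of 3 counts per library, so a difference between the groups was not detectable at this depth. The microRNA Mir675 inside H19 was at 0 in all libraries. H19 lies at 149761434 to 149764048 on the minus strand of chromosome 7.

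Meg3 and Rian lie in a row on the plus strand of chromosome 12, at 110779211 to 110809936 and 110842155 to 110899919. Meg3 had 41, 11, 12 and 31 counts in the aged mice (1 to 4) and 20, 19, 15 and 14 counts in the young mice (1 to 4). The aged mice fell on both sides of the young ones. The log2 fold change was 0.32 (SE 0.40, adjusted p = 0.631 by edgeR) and 0.00 without aged mouse 1. Rian, the host of a large snoRNA cluster, had 11, 17, 7 and 6 counts in the aged mice (1 to 4) and 8, 15, 13 and 11 counts in the young mice (1 to 4). Its log2 fold change was -0.29 (SE 0.42, adjusted p = 0.685), and -0.75 without aged mouse 2 (adjusted p = 0.207).

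Meg3 and Rian are thought to be parts of the same maternal transcription unit, so their counts were set against each other. The ratio of Meg3 to Rian was 3.73, 0.647, 1.71 and 5.17 in the aged mice (1 to 4) and 2.50, 1.27, 1.15 and 1.27 in the young mice (1 to 4). The log2 difference was 0.55 (two-sided exact permutation test, p = 0.429, adjusted p = 0.486). Aged mice 1 and 4 had the highest ratios and also the highest Meg3 counts of all 8 mice. Mirg, further along the same cluster, had 4 counts over the aged and 5 over the young libraries, and Dlk1, the paternally expressed neighbor, 26 and 15, and both were too low to be tested.

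Kcnq1ot1 is a long unspliced RNA read from within Kcnq1 on the opposite strand, and it silences genes around it on the paternal chromosome. Its start lies at 150482452 on the minus strand of chromosome 7. It stood at 272, 168, 220 and 257 CPM in the aged mice (1 to 4) and at 192, 217, 201 and 171 CPM in the young mice (1 to 4). The groups overlapped, with aged mice 1, 3 and 4 above every young mouse and aged mouse 2 below every young mouse. The log2 fold change was 0.23 (SE 0.15, adjusted p = 0.353 by edgeR), 0.14 without aged mouse 1 and 0.35 without aged mouse 2. Kcnq1, a potassium channel subunit, stood at 28.6 ± 1.98 CPM (SD, n = 4) in the aged and 28.9 ± 2.39 CPM (SD, n = 4) in the young mice (log2 fold change -0.02, adjusted p = 0.918), and its sign turned with the scaling. Counts were made by strand, so the RNAs were kept apart.

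The ratio of Kcnq1ot1 to Kcnq1 was 8.95, 5.91, 7.40 and 9.92 in the aged mice (1 to 4) and 6.38, 7.03, 6.85 and 6.71 in the young mice (1 to 4). Young mice lay close together and aged mouse 2 below all of them. The log2 difference was 0.23 (two-sided exact permutation test, p = 0.286, adjusted p = 0.486), and it was 0.37 without aged mouse 2, where 3 aged mice lay above all 4 young mice. The genes most like Kcnq1ot1 over the 8 libraries were Fam193b, Tbrg3 and 2610005L07Rik (Pearson r = 0.98, 0.98 and 0.97).

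**Figure D4:**
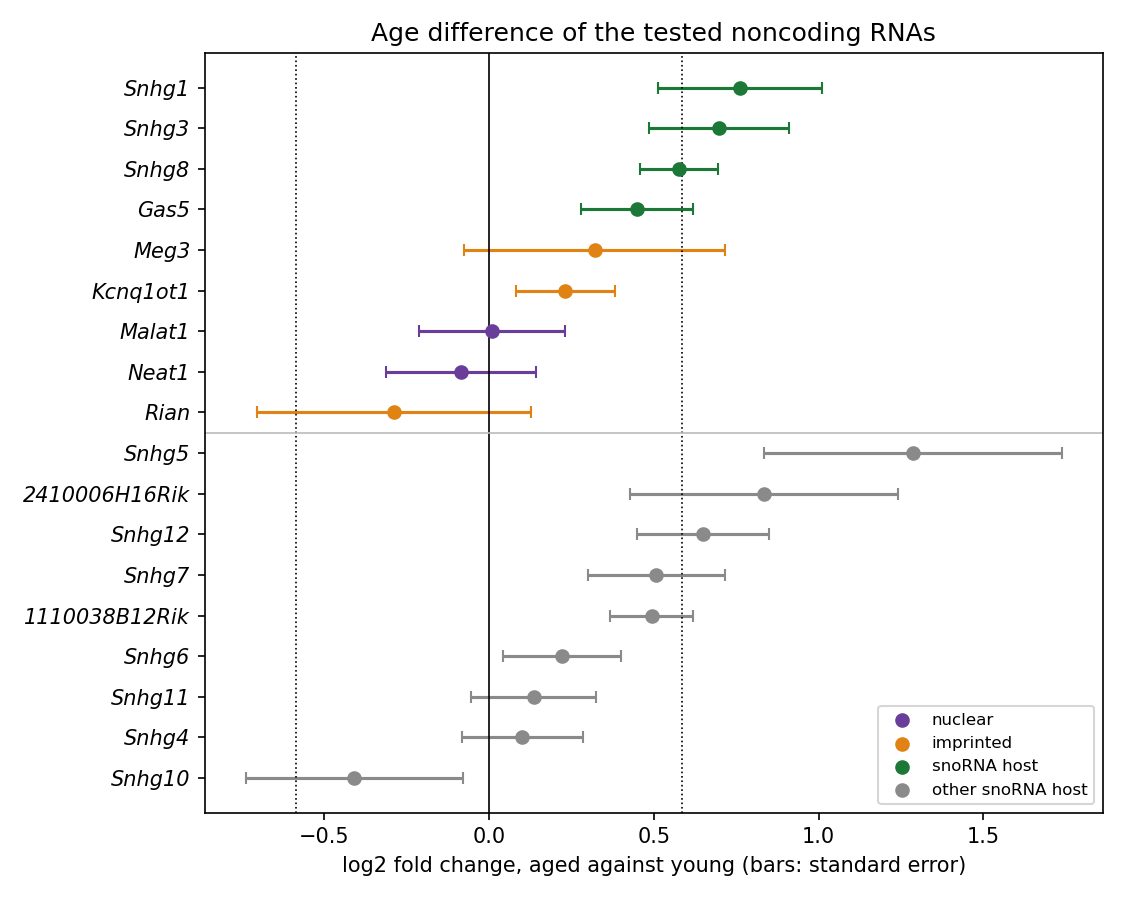
Log2 fold change, aged against young, of the 9 tested long noncoding RNAs (colored by role) and of 9 other snoRNA host genes (gray), with bars for the standard error; dotted lines mark a fold of 1.5 in each direction. Values run from -0.29 (Rian) to 0.76 (Snhg1) among the 9 RNAs, and the 4 hosts lie to the right of the nuclear and imprinted RNAs.

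Of the 17 genes listed as neighbors of the imprinted RNAs 9 could be tested, 5 with a higher aged mean (median log2 fold change 0.14). None passed the adjusted p in edgeR, and 4 had an unadjusted p below 0.05, of which 3 were higher. Over all genes tested 54.1% had a higher aged mean. An unadjusted p below 0.05 was found for 25.5% of all genes, and for 13.4% with a higher aged mean. Cdkn1c, a cell cycle inhibitor that Kcnq1ot1 silences on the paternal copy, stood at 39.1, 47.5, 38.3 and 18.6 CPM in the aged mice (1 to 4) and at 20.6, 23.9, 19.9 and 17.6 CPM in the young mice (1 to 4). Aged mouse 4 lay among the young mice and the other aged mice well above them. The log2 fold change was 0.81 (SE 0.25, adjusted p = 0.0977 by edgeR), and 1.02 without aged mouse 4 (adjusted p = 0.00531). Igf2, the growth factor gene next to H19, stood at 7.96, 5.14, 2.99 and 2.23 CPM in the aged mice (1 to 4) and at 2.65, 2.01, 1.29 and 1.42 CPM in the young mice (1 to 4). Its log2 fold change was 1.31 (SE 0.42, adjusted p = 0.105), 0.89 without aged mouse 1, and 1.54 without aged mouse 4 (adjusted p = 0.0468). DESeq2 put Cdkn1c at an adjusted p of 0.0261 and Igf2 at 0.0300. Of 17 genes of the wider imprinted network 12 could be tested, 7 with a higher aged mean (median 0.18), and none passed the adjusted p in edgeR; 2 had an unadjusted p below 0.05, both higher. Sgce had the smallest p, with a log2 fold change of 0.59 (SE 0.21, adjusted p = 0.126).

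Other long noncoding RNAs gave 14 genes that could be tested out of 20, 11 with a higher aged mean (median log2 fold change 0.17). By edgeR 3 were higher and 2 lower at an unadjusted p below 0.05. Over all genes tested 54.1% had a higher aged mean, 25.5% had an unadjusted p below 0.05 and 2.95% passed the adjusted p. Dleu2, the host of the Mir15a and Mir16-1 microRNAs, passed the adjusted p alone, with a lower level in aged mice. It stood at 15.1, 13.7, 14.1 and 17.2 CPM in the aged mice (1 to 4) and at 21.0, 20.0, 20.5 and 22.0 CPM in the young mice (1 to 4) (log2 fold change -0.48, SE 0.10, adjusted p = 0.0404). The groups did not overlap, but the adjusted p rose above 0.05 in fits that left out aged mouse 2, aged mouse 3 or any single young mouse, up to 0.130.

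The levels of the RNAs were also set beside the share of read pairs that fell on no gene, a relation chosen after seeing the data, and its part in the age comparison was not tested beyond the fit given here. That share was 29.9%, 22.6%, 24.8% and 29.0% of the library in the aged mice (1 to 4) and 22.2%, 25.1%, 23.5% and 20.0% in the young mice (1 to 4). Kcnq1ot1 followed it with Pearson's r = 0.956 (permutation p = 4.7e-04, adjusted p = 0.00424 over 9 RNAs) and Spearman's rho = 0.905 (permutation p = 0.00456, adjusted p = 0.0326), and r was 0.852 without aged mice 1 and 4, which lay farthest from the median share. Malat1 had r = 0.732 (permutation p = 0.0394, adjusted p = 0.0923) and rho = 0.881 (permutation p = 0.00724, adjusted p = 0.0326), and r fell to 0.465 without those mice, so that its relation rested in part on them. Neat1 had r = 0.629 (permutation p = 0.103, adjusted p = 0.154), rho = 0.667 (permutation p = 0.0831, adjusted p = 0.249), and r = 0.339 without them.

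With each group's mean taken away, so that only differences between mice of a group remained, r was 0.955 for Malat1, 0.946 for Neat1, 0.964 for Kcnq1ot1 and 0.825 for Meg3. It was 0.555 for Snhg1 and 0.500 for Gas5, and below 0 for Snhg3 (-0.269), Rian (-0.341) and Snhg8 (-0.644). The host genes Gas5, Snhg1, Snhg3 and Snhg8 had pooled values of 0.695, 0.747, 0.336 and 0.361, with no adjusted permutation p below 0.05, and they came to 0.370, 0.0493, -0.129 and 0.0136 without aged mice 1 and 4. Meg3 (r = 0.728) and Rian (r = -0.469) came to -0.0972 and -0.107 without these mice.

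With that share as a term in the edgeR fit, the log2 fold change became -0.39 for Malat1 (adjusted p = 0.481) and -0.59 for Neat1 (SE 0.14, adjusted p = 0.153). It became -0.10 for Kcnq1ot1 (adjusted p = 0.692) and -0.52 for Meg3 (SE 0.39, adjusted p = 0.591). None of these passed the test, and Neat1 had the smallest adjusted p among them. The values of the hosts stayed above 0, at 0.70 for Snhg8 (adjusted p = 0.119), 0.40 for Snhg1 (adjusted p = 0.570) and 0.25 for Gas5 (adjusted p = 0.639), and Snhg3 had an adjusted p of 0.275. The mean share was 26.6% ± 3.46 (SD, n = 4) in the aged and 22.7% ± 2.19 (SD, n = 4) in the young mice, so the term overlaps in part with age.

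**Figure D5:**
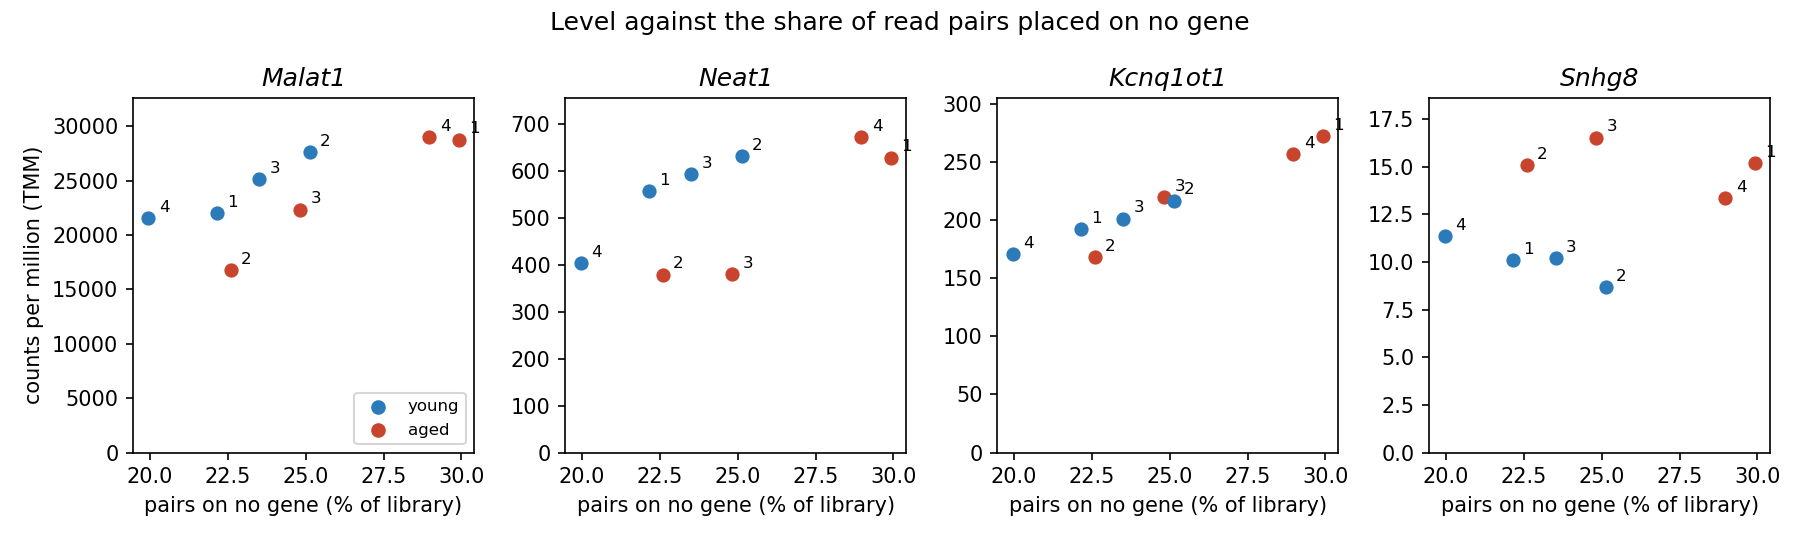
Level of Malat1, Neat1, Kcnq1ot1 and Snhg8 in TMM-scaled CPM (vertical axes, starting at 0) against the share of read pairs on no gene in percent of the library (horizontal axes) in young (blue) and aged (red) mice, marked with their number. Kcnq1ot1 lies along a line from 171 CPM at 20.0% to 272 CPM at 29.9%, while for Snhg8 every aged point lies above every young point.

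Markers of other cells were set beside the hosts. Leukocyte markers summed to 95.4 to 170 CPM in aged and 95.6 to 142 CPM in young mice. Of the 9 tested with all 8 mice, 8 had a log2 fold change above 0 (median 0.49), and Csf1r alone was below 0. Igj passed both thresholds as higher and Csf1r as lower in aged mice, where 2.06% of all genes tested passed them. Endothelial markers summed to 286 to 457 and 342 to 375 CPM, and fibroblast and mural markers to 200 to 317 and 298 to 371 CPM. Thick ascending limb markers summed to 1782 to 3421 and 2669 to 4748 CPM, distal convoluted tubule markers to 1166 to 1336 and 646 to 1167 CPM, collecting duct markers to 204 to 375 and 204 to 249 CPM, and erythroid markers to 7.09 to 19.9 and 12.2 to 27.2 CPM. Proximal tubule sums were lower in every aged mouse (9388 to 35208 CPM) than in every young mouse (38498 to 44494 CPM), the reverse order of the host sums. Of the 6 proximal tubule markers, though, 5 had a log2 fold change below 0 and 1 above 0 (median -0.32, from -1.77 to 0.19). None passed the adjusted p in edgeR. An unadjusted p below 0.05 was found for 2, both lower, where 25.5% of all genes tested had one. The 2 distal convoluted tubule markers went in opposite directions (log2 fold change -1.03 and 0.47). The part of cell makeup in the host values was not tested. The genes most like Snhg8 over the 8 libraries were Ier5, an immediate early gene (Pearson r = 0.98), Polr1c, a subunit of RNA polymerases I and III (0.98), and Rps19, a ribosomal protein (0.97). Ier5 had a log2 fold change of 0.91 (adjusted p = 0.0390 by edgeR).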

How the data were processed

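Renal cortex RNA of each mouse was depleted of ribosomal RNA and made into a stranded library. The authors aligned paired reads with TopHat2 to mm9, counted them by strand on RefSeq genes with HTSeq and deposited raw counts per gene; the submitters' processing notes also name CASAVA 1.8.2 and SAMtools. The joint table of 8 libraries was used, and its values were identical to those of the single tables. The 5 rows that name no gene (20.0% to 29.9% of a library for pairs on no gene, 34.3% to 39.1% for pairs not placed uniquely, at most 0.346% ambiguous) were kept out of the library sizes and of every test. No library was a duplicate of another.

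Counts were analyzed with edgeR 4.0.16 in R 4.3.3 (quasi-likelihood test in place of the study's DESeq, TMM, filterByExpr with a minimum count of 10, all 8 libraries, no covariate), with Benjamini-Hochberg adjustment over 13944 genes. H19 did not pass the filter. Ratios were tested with scipy 1.17.1, by exact permutation of the mice (70 orders). Fits were tested on simulated data. The alternatives were other scalings, DESeq2 1.42.0, limma 3.58.1 voom with sample weights, robust fitting, other filters, the replicate block, and each mouse left out. The share of pairs on no gene, as a term and in correlations, and the lists without aged mouse 1 were chosen after seeing the data.

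The RNAs and the lists were chosen with earlier results of these data known. All 10 RNAs were named; from each list, the genes past both thresholds, or otherwise the gene with the smallest p; always Mirg, Dlk1, Igf2, Kcnq1 and Cdkn1c; and the 3 genes most like the RNA with the smallest p of each role. Likeness was Pearson's r of log2 CPM with a prior count of 2. Gene positions came from the GENCODE annotation of mm9 (8 of 10 RNAs), start sites and promoters from RefSeq (8 of 10), and snoRNAs inside genes from the GRCm38.p6 gene table.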

Additional observations from a re-analysis of the deposited data

Results flagged for a closer look

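Of 50 groups of 4 mice tested for a mouse far from the others, 5 were set apart by Dixon's ratio of the gap to the range (95% critical value), and chance sets apart about 1 in 20 groups (2.5 here). Snhg1 in aged mouse 1 was at 18.1 CPM, above the next aged mouse at 10.03 CPM (ratio 0.860). Snrnp70 in aged mouse 2 was at 75.4 CPM, below the next at 99.5 CPM (0.867). Upf3b in the same mouse was at 21.4 CPM, below the next at 28.0 CPM (0.897). Rps3a in young mouse 4 was at 29.5 CPM, above the next at 25.4 CPM (0.831). The Meg3 to Rian ratio in young mouse 1 was 2.50, above the next at 1.27 (0.912).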

How the results depend on the processing

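The 287 genes changed in the whole table became 488 with library size only, 873 with DESeq2, 483 with limma-voom, and 8 with the share of pairs on no gene as a term, and between 8 (without young mouse 1) and 733 (without aged mouse 4) with a mouse left out. Same-numbered mice correlated between -0.03 and 0.21 in their deviations, and 5 of 8 mice correlated best with their own number. The main fit did not take the numbers as pairing, and whether they mark pairs was not tested. With the replicate block 130 genes changed, Nhp2 lost its call (adjusted p = 0.0649, and 0.0591 with limma-voom) and Snhg8 had an adjusted p of 0.0876. Of the 9 long noncoding RNAs tested, 0 changed in the main fit and 0 with limma-voom. Snhg8 alone changed with upper-quartile scaling and with library size only, and 1 RNA passed the adjusted p alone. With DESeq2 2 changed (Snhg1 and Snhg3), and 0 to 2 did with a mouse left out, where the 2 were Snhg3 and Snhg8 without aged mouse 4. Of all 13944 genes tested, 297 changed with upper-quartile scaling, 488 with library size only and 873 with DESeq2, in either direction. The adjusted p alone was passed by 2.95% of all genes. Without aged mouse 4, 2.34% passed both thresholds as higher. Over all 18 alternatives the log2 fold change ran from 0.25 to 0.60 for Gas5, 0.40 to 0.88 for Snhg1, 0.54 to 0.84 for Snhg3 and 0.51 to 0.70 for Snhg8. With library size only the median over all genes went from 0.03 to 0.14 on the log2 scale. Signs turned for Malat1 with limma-voom (-0.10), the replicate block (-0.016), the share as a term (-0.39) and a mouse left out (-0.090 to 0.15); for Neat1 with library size only (0.019) and a mouse left out (-0.24 to 0.036); for Meg3 with limma-voom (-0.062) and the share (-0.52); for Kcnq1ot1 with the share (-0.10); and for Kcnq1 with upper-quartile scaling (0.022), library size only (0.10) and a mouse left out (-0.073 to 0.027). With a mouse left out, the Neat1 to Malat1 log2 difference ranged from -0.19 to 0.0024 and the Meg3 to Rian one from 0.13 to 1.13. That of Kcnq1ot1 to Kcnq1 ranged from 0.12 to 0.37. It reached an exact permutation p of 0.0286 without aged mouse 2, the smallest possible with 4 young and 3 aged mice. Aged mouse 2 alone among the aged mice was not above every young mouse in this ratio. Leaving it out thus separated the groups by itself. With all 8 mice the exact permutation p was 0.286. The cause was not tested. H19, Meg3 and Rian are limited by depth.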
